A study of Mus musculus with 6 samples.

Results

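Notch receptors, their ligands and their effectors were followed in mouse Sertoli cells with and without the retinoblastoma gene Rb1. The 10 genes were Notch1, Notch2, Notch3, Jag1, Jag2, Rbpj, Hes1, Hey1, Hey2 and Heyl, and every probe to which the platform annotation gives one of these symbols was taken, which came to 14 of the 45281 probes on the array. Gene expression had been measured on 6 Illumina bead arrays with RNA from Sertoli cells, the somatic cells that nurse germ cells inside the seminiferous tubule. The cells came from mice aged 6 weeks of a C57B6J/129SvEv background, carried a Sox9-GFP label and had been sorted by its fluorescence. In the 3 Rb cKO samples the genotype was Rb1 flox/- with Amh-Cre, a recombinase driven by the promoter of anti-Müllerian hormone, which is active in Sertoli cells. The 3 Control samples were Rb1 flox/- without Cre, so both groups carried 1 floxed and 1 null copy and differed by label in Cre alone. An effect of Cre itself and an effect of deleting Rb1 cannot be told apart in this design. The labels do not state that arrays of a group came from different animals, and the p-values therefore describe the spread between arrays, which may be technical.

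Notch signalling passes between cells that touch. A ligand of the Jagged or Delta-like type on one cell binds a Notch receptor on its neighbour, the receptor is cut by ADAM proteases and gamma-secretase, and its intracellular part enters the nucleus, binds RBPJ and switches on target genes. The best known targets are the HES and HEY repressors, basic helix-loop-helix proteins that turn other genes off. In the mouse testis, germ cells that bear JAG1 can activate NOTCH1 on Sertoli cells, and HES1 and HEY1 are known there to repress Gdnf, a growth factor for spermatogonial stem cells, and Cyp26b1, an enzyme that degrades retinoic acid.

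The effector Hey1 and the receptor Notch1 had higher values on every Rb cKO array than on any Control array, and the effector Hes1 did not separate the groups. Of all tested probes, 12.1% separated the groups in this way, 8.04% higher and 4.01% lower in Rb cKO. Hey1 differed by 1.27 ± 0.24 (SE) on the log2 scale, or 2.41-fold, and Notch1 by 0.74 ± 0.31, or 1.67-fold, and neither passed after adjustment over all probes. The probes of the other 7 genes (Notch2, Notch3, Jag1, Jag2, Rbpj, Hey2 and Heyl) were at or near background in both groups. A probe counted as detected where its deposited detection score was over 0.95, and the test took in probes with such a score on 3 or more arrays. Over the whole array 48.2% of probes met this, and 3 of the 14 member probes did, all 3 of them detected on all 6 arrays.

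**Figure D1:**
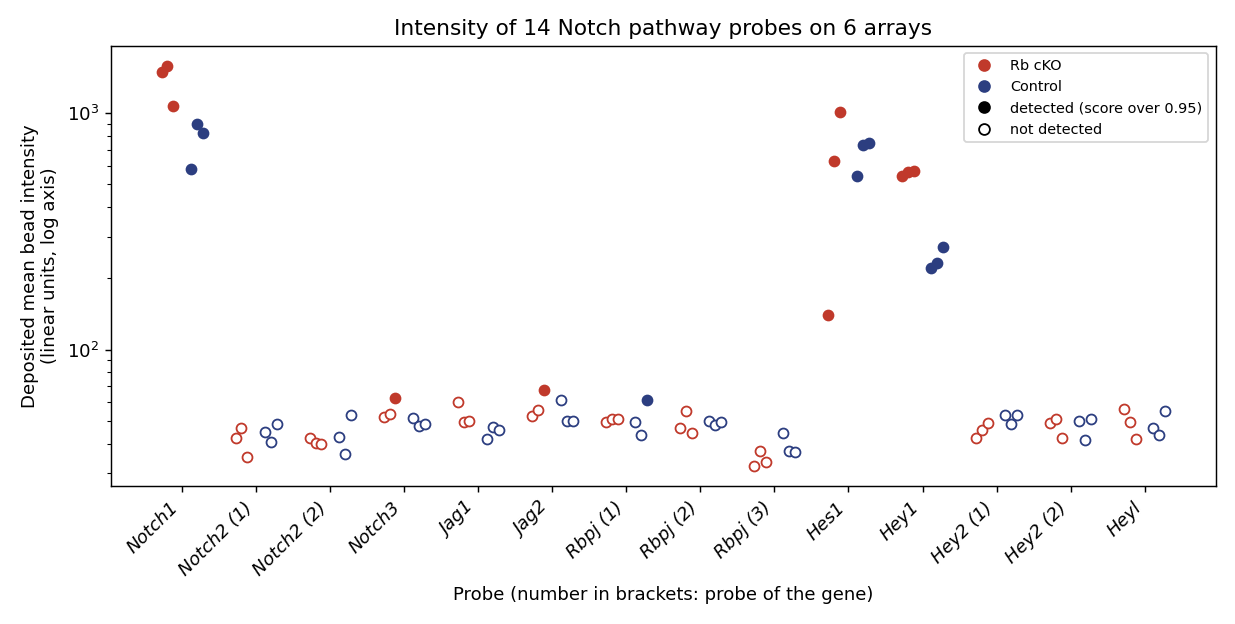
Deposited mean bead intensity (linear units on a log axis) of the 14 member probes on 3 Rb cKO arrays (red, left of each pair) and 3 Control arrays (blue, right). Filled points were detected and open points were not. Notch1, Hes1 and Hey1 lie between 140.2 and 1584.6, and the other 11 probes between 32.2 and 67.3.

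Facts of the arrays that bear on these genes are few. The share of probes detected was 43.0% to 50.04% on Rb cKO arrays and 46.0% to 53.5% on Control arrays, with a median of 43 to 44 beads per probe. Rb cKO replicate 1 and Control replicate 3 stood apart, at -113.9 and 110.2 on a first principal component holding 58.9% of the variance, where the remaining 4 arrays lay from -34.3 to 31.4. The deleted gene, Rb1, had lower values on every Rb cKO array in both its probes, as did 4.01% of all tested probes. Both Rb1 probes fell short of the threshold, at -1.22 ± 0.32 and -0.98 ± 0.34 on the log2 scale, with limma adjusted p of 0.399 and 0.668. Whether these probes lie inside the floxed part was not established, so they may not check the deletion. Over all genes, 31 of 21805 tested probes passed an adjusted p of 0.05, all higher in Rb cKO, which is 0.142%. That count moved with single arrays: limma called 8, 2 and 15 probes without Rb cKO replicates 1, 2 and 3, 6 without both arrays that stood apart, and 0 without Control replicates 1, 2 or 3, where 2622, 1058 and 874 probes had an unadjusted p under 0.05. With the replicate number as a block it called 0, and 3257 had an unadjusted p under 0.05.

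Among the 3 member receptors, Notch1 was the one measured above background on all arrays. Its intensity was 1493.6, 1584.6 and 1068.7 on Rb cKO replicates 1 to 3, against 578.2, 900.4 and 827.4 on Control replicates 1 to 3. Rb cKO replicate 3 was the lowest of its group and still lay above Control replicate 2, the highest of the controls. The normalised log2 intensity averaged 10.31 ± 0.20 in Rb cKO and 9.56 ± 0.45 in controls (SD, n = 3 each). The difference of 0.74 ± 0.31 had a 95% confidence interval of 0.016 to 1.47, unadjusted for the number of probes, and a limma adjusted p of 0.766. It ranked 1313 among the 21805 p-values. Without Control replicate 1, the array with the least Notch1, the difference was 0.50, and over all 16 alternatives it stayed between 0.50 and 0.94. The standard error between beads of the Notch1 probe on 1 array was at most 57.5 intensity units in Rb cKO and 28.7 in controls.

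The upstream sequence of Notch1 is shown because this receptor is the one member with both a level above background and a matching promoter entry. RefSeq promoter entries (GRCm38.p6) matched 7 of the 10 genes, and Hes1, Hey1 and Heyl were not matched. The 250 bases before the annotated start were searched on both strands for the RBPJ core GTGGGAA, for 4 forms of the E2F site (TTTCCCGC, TTTGGCGC, TTTCGCGC and TTTGCCGC), for the HES class C site CACGCG and for the GC box GGGCGG, the site of Sp1-type factors. Hey2 is printed beside Notch1 as the one member whose window holds the RBPJ letters. Capitals mark GC boxes in both sequences and, in Hey2, also the RBPJ letters, which lie on the opposite strand at positions -207 to -201, counted back from the start. No marked motif overlaps another in these sequences.
Notch1, chr2:26503823-26504072, minus strand: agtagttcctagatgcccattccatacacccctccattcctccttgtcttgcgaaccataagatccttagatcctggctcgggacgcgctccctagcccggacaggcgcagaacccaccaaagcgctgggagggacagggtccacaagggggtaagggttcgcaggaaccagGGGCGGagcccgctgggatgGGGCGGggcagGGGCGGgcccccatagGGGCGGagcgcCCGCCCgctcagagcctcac
Hey2, chr10:30842784-30843033, minus strand: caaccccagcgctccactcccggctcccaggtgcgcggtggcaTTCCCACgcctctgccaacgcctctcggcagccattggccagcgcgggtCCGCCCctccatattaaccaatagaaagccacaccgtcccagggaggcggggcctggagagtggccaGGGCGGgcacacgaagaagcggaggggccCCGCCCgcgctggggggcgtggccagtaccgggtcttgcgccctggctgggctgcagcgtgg
The Notch1 window held 5 GC boxes and none of the RBPJ, E2F or HES letters. The windows of Notch2 and Jag2, whose probes were at or near background, held as many GC boxes. Of all 32851 promoter windows of this length, 32.7% held a GC box, 1.93% held at least 5, 5.42% held the RBPJ letters, 1.86% an E2F form and 7.62% the HES class C letters. Notch2 was the one member with an E2F form, at -114 to -107. These matches describe letters in a window and say nothing of binding in these cells.

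The other receptors gave no measurable level with the probes used. Both Notch2 probes were undetected on all 6 arrays, at intensities of 35.2 to 46.4 on Rb cKO arrays and 36.2 to 53.1 on Control arrays, where the dimmest detected probe of an array lay at 58.5 to 68.0. The Notch3 probe read 52.0, 53.2 and 62.2 on Rb cKO replicates 1 to 3, against 51.5, 47.7 and 48.3 on Control replicates 1 to 3. It was detected on Rb cKO replicate 3 alone, with a detection score of 0.977, and no fold is given because its lower bound came out under 1. Notch4, a further receptor of this family known mainly from endothelium, was detected on all arrays at 690.3, 446.7 and 306.4 in Rb cKO, against 432.6, 271.5 and 293.6 in controls. The groups overlapped, and its log2 difference was 0.43 ± 0.42.

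The 2 Jagged ligands among the members were also at background. Jag1, the ligand that germ cells carry, was detected on no array, with intensities of 49.4 to 59.9 in Rb cKO, against 42.0 to 46.9 in controls, and values below detection have no order. Jag2 read 52.1, 55.4 and 67.3 in Rb cKO, against 61.0, 50.1 and 49.7 in controls, and passed detection on Rb cKO replicate 3 alone. The Jag2 groups overlapped. A reading below detection is a limit of the probe and does not show that the transcript was absent. Of the 7 listed ligand genes on the array, Jag1 and Jag2 included, 4 were tested, all with positive differences and a median of 0.22, and 0 passed. Over all tested genes 61.3% were positive, with a median of 0.12, and 0.195% passed. The 4 tested ligand genes were dim, at intensities of 54.8 to 116.5, and Dll1 was detected on 2 arrays of each group. The neuronal ligand Dner stood at 0.62 ± 0.31 (log2 difference), Dlk1 at 0.25 ± 0.30 and Dll3 at 0.20 ± 0.27.

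RBPJ, the DNA-binding protein of the pathway, had 3 probes, and their intensities ran from 32.2 to 54.9 on Rb cKO arrays and from 36.8 to 61.0 on Control arrays. One of them was detected on Control replicate 3 with a score of 0.959, and all other Rbpj readings were below detection. A difference in Rbpj was not detectable with these probes.

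Hey1 showed the clearest difference of all members. Its intensity was 542.3, 566.1 and 570.4 on Rb cKO replicates 1 to 3, against 221.1, 231.6 and 271.1 on Control replicates 1 to 3. Every Rb cKO array was above every Control array, and the arrays of each group lay close together. On the normalised log2 scale Hey1 averaged 9.01 ± 0.08 in Rb cKO and 7.74 ± 0.15 in controls (SD, n = 3 each). The 95% confidence interval of the difference was 0.70 to 1.83, or 1.63-fold to 3.56-fold, unadjusted for the number of probes. Its p-value ranked 139 among 21805, and the limma adjusted p was 0.157, so Hey1 did not pass. Between-bead standard errors were 13.1 to 17.2 intensity units in Rb cKO and 6.10 to 11.1 in controls. The difference stayed between 1.11 and 1.36 over all 16 alternatives, and it passed in 1 of them, with array weights estimated from the data, at an adjusted p of 0.0215.

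**Figure D2:**
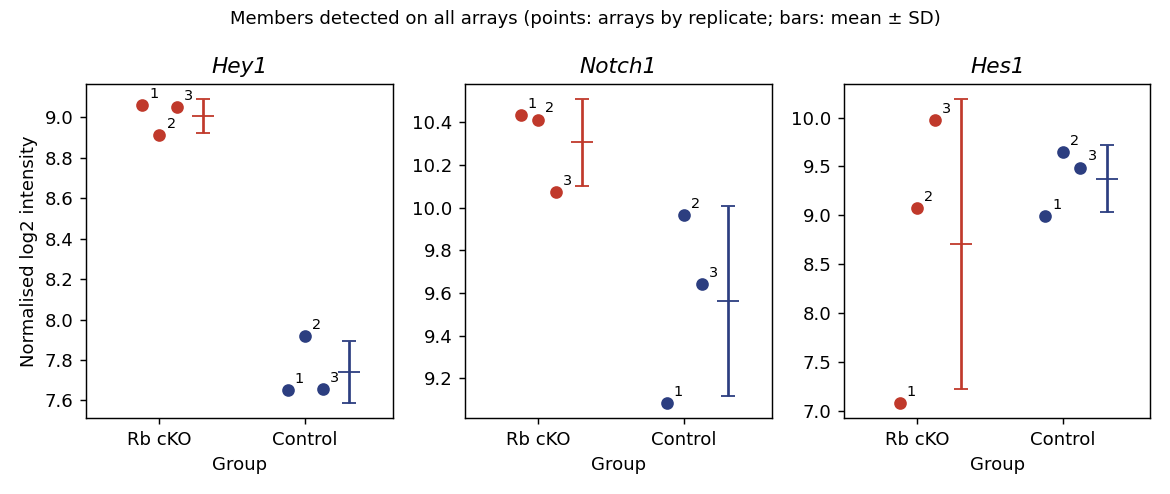
Normalised log2 intensity of Hey1, Notch1 and Hes1, with Rb cKO arrays (red) left of Control arrays (blue). Points are arrays with their replicate number, and bars give the mean ± SD of each group (n = 3). Hey1 and Notch1 do not overlap between groups, and Rb cKO replicate 1 of Hes1 lies at 7.08, far below the other 5 arrays.

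Hes1 turned on a single array. Its intensity was 140.2, 630.5 and 1010.8 on Rb cKO replicates 1 to 3, against 541.1, 735.8 and 750.6 on Control replicates 1 to 3. Rb cKO held both the lowest and the highest of the 6 values. The normalised log2 intensity averaged 8.71 ± 1.48 in Rb cKO and 9.38 ± 0.34 in controls (SD, n = 3 each), a difference of -0.67 ± 0.69 with a 95% confidence interval of -2.27 to 0.94 and a limma adjusted p of 0.788. Without Rb cKO replicate 1 the difference was 0.15 ± 0.39, and without both arrays that stood apart 0.20 ± 0.42, so no direction can be given for Hes1. Without Rb cKO replicate 3 it was -1.30 ± 0.59. The interval spans both directions and does not show that the groups were alike.

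The other HEY genes were below detection. Hey2, with 2 probes, ran from 42.2 to 50.9 in intensity on Rb cKO arrays and from 41.3 to 53.1 on Control arrays. Heyl read 56.2, 49.5 and 41.7 in Rb cKO, against 46.8, 43.6 and 55.0 in controls. Hence of the 3 HEY repressors Hey1 alone had a measured level with the probes used. Of the 10 HES and HEY genes listed, 4 were tested: Hey1, Hes1, Hes6 and Helt. Hes6, which in mouse can oppose HES1, gave a log2 difference of -0.11 ± 0.36. Helt, a neural relative of the HEY proteins, gave -1.09 ± 0.42, with an adjusted p of 0.728 and overlapping groups.

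Read as a set, 0 of the 3 tested member probes passed the adjusted threshold, beside 0.142% of all tested probes. An unadjusted p under 0.05 was met by 2 of 3, Hey1 and Notch1, both higher in Rb cKO, beside 6.39% of all tested probes (4.63% higher and 1.76% lower). Hey1 alone met it without Rb cKO replicate 1, 2 or 3, without Control replicate 1 or 3 and without both arrays that stood apart. The arrays of the groups were also fully separate for Hey1 and Notch1, beside 12.1% of all tested probes (8.04% higher and 4.01% lower). With 3 probes such shares carry little weight, and the genes were chosen with earlier results of these data known. The median difference over all 12277 tested genes was 0.12, and 61.3% of them were positive, and this median was itself set by single arrays, at 0.016 without Control replicate 3, 0.20 without Rb cKO replicate 3 and -0.03 without both arrays that stood apart.

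**Figure D3:**
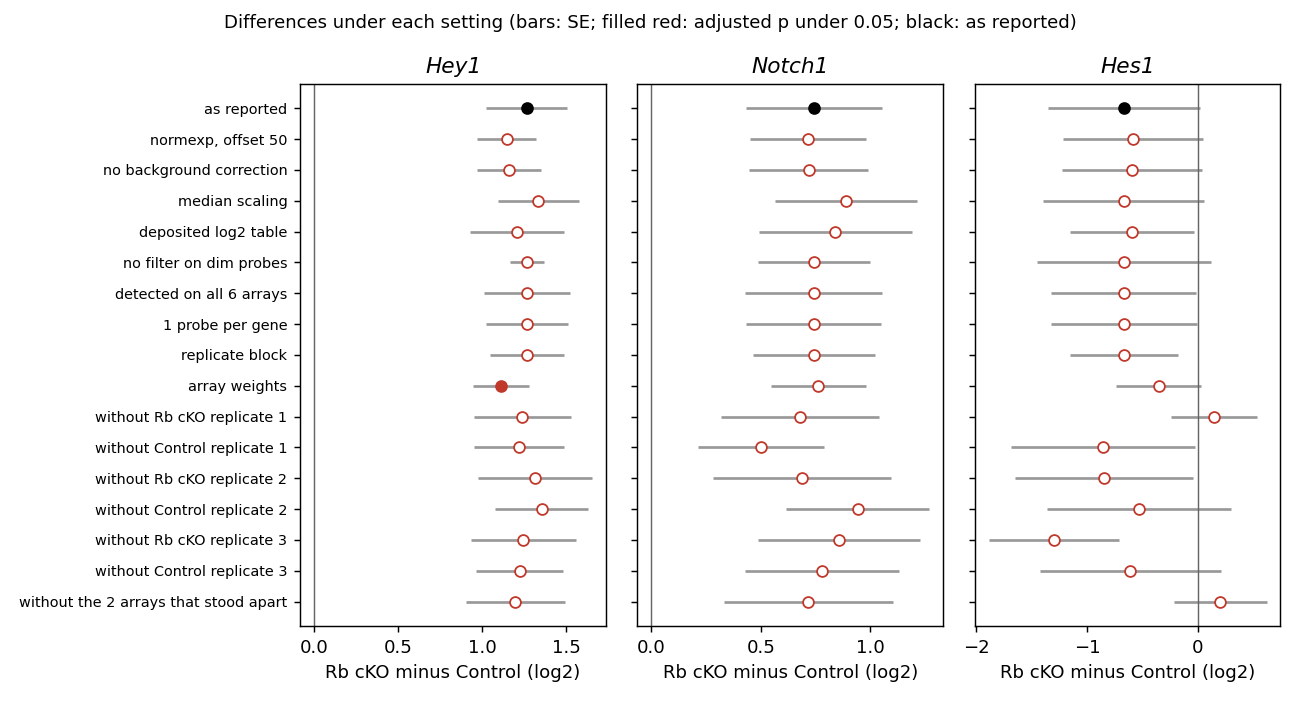
Difference between Rb cKO and Control (log2) for Hey1, Notch1 and Hes1 in the reported fit (black) and 16 alternatives, with standard errors as bars. Filled red marks an adjusted p under 0.05. Hey1 stays between 1.11 and 1.36 and Notch1 between 0.50 and 0.94, and Hes1 crosses 0 in the 2 settings that leave out Rb cKO replicate 1.

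Genes that build, cut, sugar-coat or clear the receptors, and those that work with RBPJ in the nucleus, had differences of both signs. Of 85 pathway genes listed, 77 were on the array and 52 were tested by their brightest tested probe. In these, 24 differences were positive and 28 negative, with a median of -0.10, against 0.12 over all genes. Without Rb cKO replicate 1 the pathway median was 0.08, and without Control replicate 3 it was -0.12, so its sign rests on single arrays as well. After adjustment 0 of 52 passed, beside 0.195% of all genes. Notch1, Neurl2, Tle3 and Hey1 had an unadjusted p under 0.05 with a positive difference (4 of 52, beside 5.96% of all genes) and Helt with a negative one (1 of 52, beside 1.81%), where 7.77% of all genes met it in either direction. Neurl2 entered the test through its Rb cKO arrays alone, so its direction was fixed by the filter. The 5 became 12 with the replicate number as a block, 1 without Rb cKO replicate 1, 3 without Rb cKO replicate 2, 8 without Control replicate 1 and 3 without both arrays that stood apart. Arrays of the 2 groups were fully separate for Notch1, Neurl2, Tle3, Maml2 and Hey1 on the higher side (5 of 52, beside 9.56%) and for Ncstn and Aph1a on the lower side (2 of 52, beside 4.33%), with 13.9% of all genes separate in either direction. Neurl2 and Maml2 were detected on no Control array, and the filter fixed their side.

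In receptor cleavage, 6 of 8 tested genes had negative differences, with a median of -0.26. Nicastrin (Ncstn), the gamma-secretase subunit that receives the substrate, was lower on every Rb cKO array at 12.26 ± 0.13 against 12.81 ± 0.20 in controls (normalised log2, SD, n = 3 each). The difference was -0.55 ± 0.25 with a limma adjusted p of 0.766, and its other tested probes gave -0.36 and -0.31. The probe at -0.31 read 238.3 in intensity on Control replicate 3. It read 75.5 and 76.6 on Control replicates 1 and 2, below the 88.7 to 93.2 of the Rb cKO arrays. Aph1a, another subunit, stood at -1.01 ± 0.55, and its intensity was 352.6 on Control replicate 3 against 75.1 to 95.4 on the other 5 arrays. The catalytic subunit Psen2 stood at 0.78 ± 0.43, and its dimmer probe at 0.12. Adam10 and Adam17, the proteases that make the outer cut, stood at 0.13 and -0.22.

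Among the enzymes that add sugars to the receptor's repeats, 3 of 7 genes on the array were tested. The glucosyltransferase Poglut1 stood at 0.48 ± 0.35, and the xylosyltransferases Xxylt1 and Gxylt1 at -0.25 and -0.30. Genes for the uptake of ligand had a median of 0.37 over 4 tested. Neurl2, of the neuralized family, was detected on all 3 Rb cKO arrays and on no Control array, so the filter fixed its side. Its intensity was 69.0 to 72.1 in Rb cKO, near the detection limit, and 48.6 to 52.0 in controls. The bound on its group means was 1.23-fold, with a limma adjusted p of 0.673. That bound sets the Rb cKO mean against the mean over Control arrays of the lowest detected level, or of the probe's level where higher. It leaves out the spread between arrays. Neurl1a stood at 0.74 ± 0.43 and Mib1 at -0.36 ± 0.36. In receptor turnover, 10 genes were tested, with 5 positive and 5 negative differences and a median of -0.02. Its 3 smallest p-values belonged to the kinase gene Aak1, at 0.27 ± 0.30 with a second probe at 0.86, the clathrin adaptor gene Ap2a1, at -0.51 ± 0.82 with a second probe at -1.19, and Dtx3l, at -0.15 ± 0.27. Dtx3l was detected on the 3 Control arrays and no Rb cKO array, but near the limit and with overlapping groups, at intensities of 68.0, 60.4 and 54.6 in Rb cKO, against 63.8, 61.4 and 67.3 in controls. Nrarp, a feedback inhibitor that Notch itself induces, stood at -0.14 ± 0.27.

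In the nuclear complex, 15 of 21 genes on the array were tested, 6 with positive and 9 with negative differences. The corepressor Tle3, a Groucho protein that HES and HEY factors recruit, averaged 9.80 ± 0.04 in Rb cKO and 8.84 ± 0.74 in controls (normalised log2, SD, n = 3 each). All Rb cKO arrays were above all controls, and the difference was 0.95 ± 0.39 with a limma adjusted p of 0.762, while its other probes gave 0.72 and 0.18. The acetyltransferase Ep300, a coactivator of the Notch complex, stood at -1.09 ± 0.51, and its dimmer probe at -0.13. Maml2, which bridges Notch and coactivators, was detected on all Rb cKO arrays and no Control array, so the filter fixed its side. The bound on its group means, formed as for Neurl2, was 1.61-fold, or 1.14-fold without Rb cKO replicate 1. This bound again leaves out the spread between arrays. The log2 difference of Maml2 was 0.92 ± 0.45, with a limma adjusted p of 0.766. Its confidence interval of -0.13 to 1.96 spans both directions. Its intensity was 61.6 on Rb cKO replicate 3 and 61.1 on Control replicate 1.

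**Figure D4:**
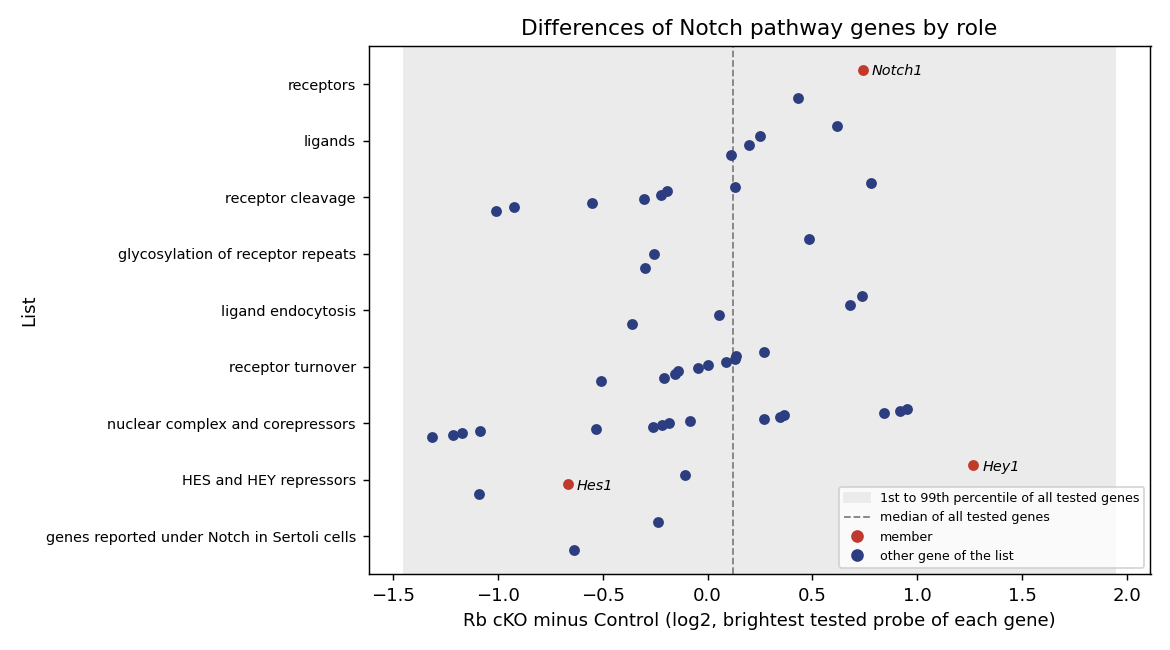
Log2 difference between Rb cKO and Control of each tested pathway gene, by role, with members in red and other genes in blue. The grey band spans the 1st to 99th percentile of all 12277 tested genes (-1.45 to 1.94) and the dashed line their median of 0.12. Every pathway gene shown lies inside the band.

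Both genes known to be repressed downstream of HES1 and HEY1 in mouse Sertoli cells were measured. Gdnf read 384.5, 440.3 and 325.1 in intensity on Rb cKO arrays, against 379.4, 674.3 and 619.9 on Control arrays. Control replicate 1 lay among the Rb cKO arrays, so the groups overlapped, and the log2 difference of -0.64 ± 0.34 had a limma adjusted p of 0.766. Cyp26b1 read 86.5, 77.5 and 70.8 in Rb cKO, against 89.5, 69.8 and 113.2 in controls, a log2 difference of -0.24 ± 0.29 with an adjusted p of 0.809. Neither passed, and the groups overlapped for both. Both differences had a negative sign, as did those of all 12 tested Sertoli cell markers.

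Profiles most like those of Hey1 and Notch1 were found by the root mean square difference between the 6 array values, each gene centred on its own mean, over 11685 genes. Closest to Hey1 were Xdh, an oxidase of purine breakdown, Vopp1 and the innate immune receptor Tlr2, at 0.0689, 0.0983 and 0.109 log2 units, where the median gene lay at 0.672. On all Control arrays these 3 genes lay under the lowest detected level, so their own differences are open-ended. They entered the test through their Rb cKO arrays alone, so the filter fixed their side. Closest to Notch1 were the kinase gene Map2k1, the kinesin Kif1c and the claudin Cldn23, at 0.0816, 0.0969 and 0.0994, where the median gene lay at 0.562. These are the nearest of many genes over 6 arrays, and no test was made.

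Most markers of the labelled cell type were present on every array. All 12 Sertoli cell markers on the array were tested. Among them were Sox9, at 11.48 to 11.82 in Rb cKO and 11.83 to 12.20 in controls, and Cldn11, at 14.40 to 14.61 in Rb cKO and 14.53 to 14.61 in controls (normalised log2). Rb cKO replicate 1 was low in others: Trf and Dmrt1 were undetected there, and Inha read 69.6 in intensity, against 1126.6 and 4400.3 on Rb cKO replicates 2 and 3 and 2106.7 to 6499.8 on Control arrays. All 12 had negative differences with a median of -0.44 and 0 passed, and their summed linear signal was 38800 to 46270 in Rb cKO and 45260 to 56050 in controls. Cldn11, the brightest of the 12 on every array, weighed most in these sums, and its log2 difference was -0.07. In RNA from a mass of cells, fewer cells of a type and less RNA per cell cannot be told apart.

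Most markers of endothelial, peritubular, Leydig, leukocyte and spermatogonial cells had positive differences, as Hey1 and Notch1 did, and 0 of them passed. Over all tested genes 61.3% had positive differences and 0.195% passed. Notch genes are well known in blood vessels, where Hey1 is a target in endothelium. Of 12 endothelial markers, 9 were tested and all 9 had positive differences, with a median of 0.98, and their summed linear signal was 4069, 1550 and 2062 on Rb cKO replicates 1 to 3, against 634.6, 581.1 and 311.3 on Control replicates 1 to 3. Kdr, Tie1 and Eng were not tested, being detected on fewer than 3 arrays. The probe used for Robo4 made up 2799, 977.8 and 1178 of the Rb cKO sums and 109.7, 144.2 and 62 of the Control sums, and the other Robo4 probes differed by 0.23 and 0.31 (log2). Without Robo4 the sums were 1270, 571.7 and 883.5 on Rb cKO arrays, against 525, 437 and 249.3 on Control arrays, and the median difference was 0.86. Of 10 peritubular and mural cell markers, 6 were tested, all positive, with a median of 0.76 and sums of 9356 to 18890 in Rb cKO and 4694 to 9467 in controls, and Tagln, Cnn1, Rgs5 and Pdgfrb were not tested. Spermatogonia markers had 8 of 9 positive differences, a median of 0.67 and sums of 5095 to 6158 in Rb cKO and 4161 to 4811 in controls. Leydig cell markers had 4 of 5 positive differences and a median of 1.26. Their sums were 2246 to 8536 in Rb cKO and 1116 to 2902 in controls, and Insl3 weighed most in them. The Leydig marker Star and the spermatogonia marker Ret were detected on all Rb cKO arrays and no Control array. The filter therefore fixed the side of both, and they count among the positive differences and in the medians. Macrophage and leukocyte markers had 4 of 5 positive differences and a median of 1.35, with sums of 3026 to 4231 in Rb cKO and 4671 to 5470 in controls. Mrc1, at -0.83, made up most of these sums, and without it they were 857.6 to 1408 in Rb cKO and 170.4 to 500.1 in controls. The markers Ptprc, Csf1r, Lyz2 and Itgam were not tested. Spermatid markers had 4 of 7 positive differences and a median of 0.016, with sums of 67870 to 94130 in Rb cKO and 73330 to 88170 in controls, larger than those of any other list in either group. Sums of different lists rest on different genes and probes, so their sizes do not rank cell types by amount. The part of these cells in the values of Hey1 and Notch1 was not tested.

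**Figure D5:**
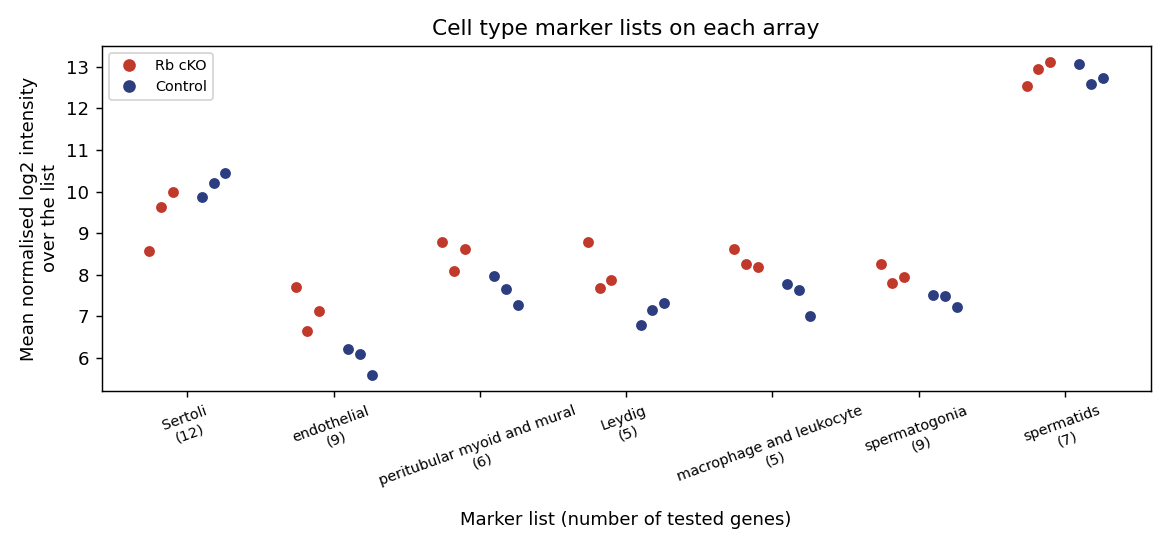
Mean normalised log2 intensity over each cell type marker list on 3 Rb cKO arrays (red, left) and 3 Control arrays (blue, right), with the number of tested genes below each list. Endothelial markers lie at 6.65 to 7.71 in Rb cKO and 5.58 to 6.21 in controls, and Sertoli markers at 8.57 to 9.98 in Rb cKO and 9.87 to 10.45 in controls.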

How the data were processed

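RNA had been labelled with biotin and hybridised to 1 Illumina bead array per sample, 3 for Rb cKO and 3 for Control. The submitters' processing notes name BeadStudio and give no version. Each scanner table, per the file headers, has a mean bead intensity on a linear scale, the bead SD, the bead number and a detection score that rises with signal. The deposited series table holds log2 values, which on comparison with the scanner values were log2 intensity, scaled to the 75th percentile of its array and then centred by probe on the median. Its column medians were 0.244, -0.022 and -0.194 for Rb cKO replicates 1 to 3, and 0.040, 0.098 and -0.301 for Control replicates 1 to 3, and scale, centring and direction were all settled by this comparison. All 45281 entries matched 1 scanner probe within 0.000395, with the nearest second probe at 0.00279, and this joined scanner numbers to annotated probes. By the annotation 34885 probes had 1 symbol, 18 had several and 10378 had none. Entrez IDs of 34807 probes were found among GRCm38.p6 genes, and 0 symbols changed.

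Intensities were corrected and quantile-normalised with neqc (offset 16, background from detection values) in limma 3.58.1 under R 4.3.3. Probes detected on at least 3 of 6 arrays were fitted with lmFit and eBayes, group as the only term, two-sided, with Benjamini-Hochberg adjustment over 21805 probes. The fit was tested on data simulated from each probe's mean and spread, in 10 runs with 200 changed probes. It called 1% of 2-fold and 38.4% of 4-fold changes, and 5.3% of its calls were false. A gene that did not pass may therefore still differ. The runs used the mean and spread of each probe, and whether these percentages hold where many probes of an array move together was not tested. A gene is given by its brightest tested probe. Alternatives changed background, scaling, filter, probes per gene, weights, block and arrays. Named genes are all members and Rb1, then up to 3 further genes of each pathway list with the smallest p, Gdnf and Cyp26b1, and the 3 genes most like each of the 2 members with the smallest p. Other genes named from the lists, Adam10, Adam17, Nrarp and the marker genes, were added after their values were seen. The members, lists and alternatives were chosen with earlier results of these data known. Values without Robo4, without Mrc1 and, for Maml2, without Rb cKO replicate 1 were added after seeing the data.

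Both groups carry replicate numbers 1 to 3. For arrays that share a number, the correlation of their deviations from the group means was 0.262, 0.410 and 0.473, each over 0.1. This was taken as a sign of pairing, on these correlations alone, which were not set against those of arrays with different numbers. The labels do not say what the number stands for, so pairing was not established. The reported fit leaves it out, with group as the only term. With the number as a block 0 probes passed over the array, where the reported fit called 31. The number of arrays limits the precision.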

Additional observations from a re-analysis of the deposited data

Results flagged for a closer look

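Of the 3 untested member probes detected on 1 array, Notch3 and Jag2 were detected on an Rb cKO array and on no Control array, and an Rbpj probe on Control replicate 3 (score 0.959) and no Rb cKO array. The Notch3 probe had a detection score of 0.977 on Rb cKO replicate 3, with 0.717 and 0.736 on Rb cKO replicates 1 and 2 and 0.745 to 0.764 on Control arrays. The Jag2 probe had a score of 1 on Rb cKO replicate 3, with 0.719 and 0.813 on Rb cKO replicates 1 and 2 and 0.782 to 0.934 on Control arrays. Each of these rests on 1 array and was not tested between groups.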

How the results depend on the processing

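Differences of Hey1 and Notch1 were positive in all 16 alternatives, and Notch1 passed in 0 of them. With array weights, whose estimation stopped before its tolerance was reached, 1 member probe, 1 member gene and 1 pathway gene passed, in each case Hey1, and 314 probes passed over the array. In the other 15 alternatives 0 member probes and 0 pathway genes passed. Hes1, at -1.30 to 0.15 with each array left out in turn, turned to 0.15 without Rb cKO replicate 1 and to 0.20 without Rb cKO replicate 1 and Control replicate 3 together. The 31 probes called over the array became 12 when normexp used an offset of 50, 13 when background was left in, 1 when dim probes were kept in the test, 56 with 1 probe per gene, 6 without the 2 arrays that stood apart, and 0 to 15 without each array in turn. With the replicate number as a block 0 probes passed over the array, Hey1 had an adjusted p of 0.176 and Notch1 one of 0.325, and no member's call changed. When arrays were left out, the normalisation of all 6 was kept. Levels under detection limit what can be said of 7 of the 10 genes.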
